A study of Mus musculus with 11 samples.

Results

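The chemokine system of mouse back skin with MC903-induced dermatitis is described here through 59 genes, 37 ligands and 22 receptors, of 24411 genes in the files. Members are all genes whose symbol begins with Ccl, Cxcl, Xcl, Cx3cl, Ccr, Cxcr, Xcr, Cx3cr or Ackr followed by a digit, without the eotaxins Ccl11 and Ccl24 and their receptor Ccr3. The rule uses symbols alone. Total RNA of skin was sequenced in 11 samples, 4 in the PaCre+BMT group and 7 in the PaCre-BMT group. All hosts were Tg(act-EGFP)Y01Osb mice, which carry EGFP in nearly all cells, with a labelled age of 16 to 18 for which no unit is given. All were irradiated with 10 Gy and received femoral marrow cells sorted from donors of the genotype Pdgfra-Cre;tdTomato. There tdTomato marks a cell whose lineage has at some time expressed Pdgfra, whether or not it still does. The PaCre+BMT hosts received the tdTomato-positive cells and the PaCre-BMT hosts the tdTomato-negative cells. After 6 weeks of recovery, MC903 (calcipotriol, a vitamin D analog) was put on the back skin 6 times in both groups, and the skin was taken on day 14. No unirradiated, untransplanted or MC903-free skin was analysed here, so no value below is a response to MC903 or to irradiation. The skin holds RNA of host and donor cells alike, and the files do not separate them.

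Chemokines are small secreted proteins that bind glycosaminoglycans on vessels and matrix and guide leukocytes through G protein-coupled receptors. They are named by the spacing of their first cysteines (CC, CXC, XC and CX3C). In skin, keratinocytes, fibroblasts, endothelium and macrophages release them, and the receptors sit mostly on leukocytes. Atypical receptors bind chemokines without coupling to G proteins and clear or transport them.

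Estimated counts summed to between 7190752 and 9749842 per sample. The labels number the samples without saying that each is a separate animal, so the p-values rest on a sample-to-sample spread that may be technical. Of the 16 hair follicle markers examined, all were below 0 in log2 fold change, and their summed level ran from 320 to 9348 TPM (transcript abundance scaled for gene length and library size) in the PaCre+BMT samples and from 195 to 28393 TPM in the PaCre-BMT samples. All 9 keratinocyte and 7 fibroblast markers were detected. Their summed levels were 17061 to 29072 TPM and 4231 to 6834 TPM in the PaCre+BMT samples, against 9514 to 30701 TPM and 3369 to 8979 TPM in the PaCre-BMT samples. In bulk skin, fewer cells of a type and less RNA per cell cannot be told apart.

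A few ligands made up most of the chemokine RNA. The 10 most abundant ligands held 86.9% of the summed ligand TPM and the 8 most abundant receptors 85.2% of the summed receptor TPM. Means over all 11 samples reached 100 TPM in 6 members and 10 TPM in 26 members, 20 of them ligands and 6 receptors. Ccl8 stood first at 563 ± 296 TPM (SD, n = 11). Ccl27a followed at 203 ± 77.7 TPM, then Cxcl12 at 139 ± 26.7 TPM and Cxcl14 at 135 ± 63.4 TPM, which did not differ from each other beyond their spread. Ccl6 and Cxcl2 completed the 6, at 120 ± 59.4 TPM and 101 ± 143 TPM (SD, n = 11). The receptors were far lower. The most abundant receptor, Cxcr4, had 25.2 ± 8.43 TPM (SD, n = 11), and Ccr2, Ackr4, Ackr3 and Ccr1 lay between 13.5 and 22.8 TPM on average. Neighbours among these receptors lay within each other's spread.

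**Figure D1:**
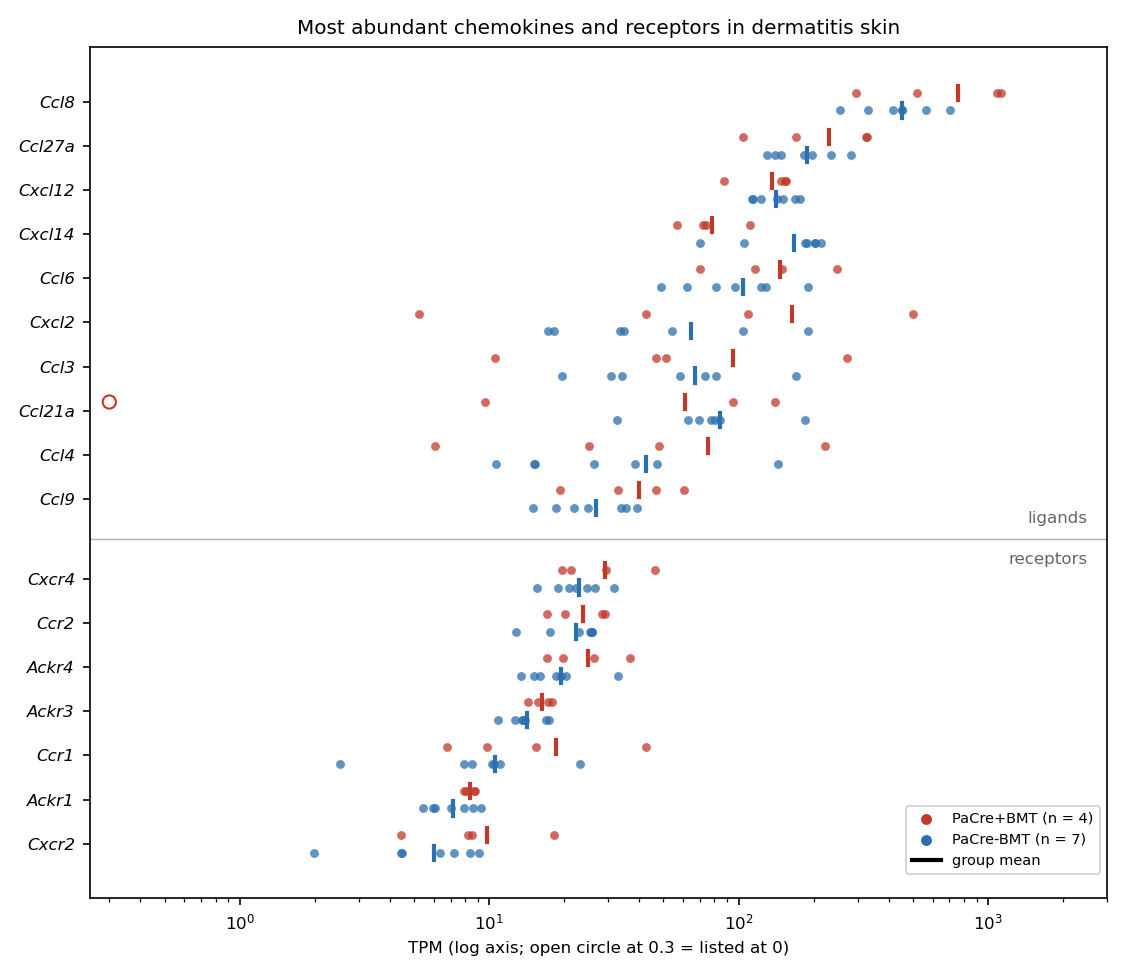
TPM (log axis) of the 10 ligands with the highest mean and of 7 abundant receptors, one point per sample, PaCre+BMT (n = 4) above PaCre-BMT (n = 7), with a bar at each group mean. Ccl8 lies farthest to the right, the groups overlap in each gene, and Cxcl2, Ccl3, Ccl4 and Ccl21a have the widest scatter.

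Of the 59 members, 44 passed the filter on low counts and were tested for PaCre+BMT minus PaCre-BMT, 27 ligands and 17 receptors. This comparison asks whether dermatitis skin differs when the marrow came from the PDGFRα lineage. With edgeR's quasi-likelihood test and Benjamini-Hochberg adjustment over all 14588 tested genes, 0 members passed an adjusted p of 0.05, and 0% of all tested genes did. The smallest adjusted p of a member was 0.248, for Cxcl14. At an unadjusted p under 0.05 there were 4 members with a higher mean in the PaCre+BMT group (Cxcl11, Ccr9 and Ccl5 among them) and 2 with a lower one (Cxcl14 and Ccr4). Over all tested genes 7.05% were higher and 9.73% lower by this criterion, so 4 and 2 of 44 are near the background. In 0 of 44 members did the 2 groups separate in TPM without overlap, against 1.37% of all tested genes.

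The fold changes were nonetheless mostly above 0. Of the 27 tested ligands 23 lay above 0 on the log2 scale (median 0.47), and of the 17 tested receptors 13 did (median 0.22). Over all tested genes 48.6% lay above 0 and the median was -0.01. These counts describe the members and carry no test, and the medians moved with single samples. Markers of several cell types lay on the same side. Of the macrophage and monocyte markers 13 of 13 were above 0 (median 0.60, 9 of them at an unadjusted p under 0.05), of the tested neutrophil markers 6 of 6 (median 1.07) and of the tested T cell markers 8 of 8 (median 0.54), and 0 passed after adjustment. The dendritic and Langerhans markers were split, 4 above and 4 below 0, and 5 of 6 mast cell markers lay above 0 (median 0.09). All 7 fibroblast markers (median 0.43) and all 7 blood endothelium markers (median 0.345) were also above 0. The keratinocyte markers were mixed (6 above and 3 below 0), and all 16 hair follicle markers lay below 0. The part of these cell types in the shift of the members was not tested. Without PaCre+BMT replicate 1 the ligand median was 0.08 and the receptor median 0.12, and the receptor median was 0.35 without PaCre+BMT replicate 4 and 0.33 without PaCre-BMT replicate 1.

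**Figure D2:**
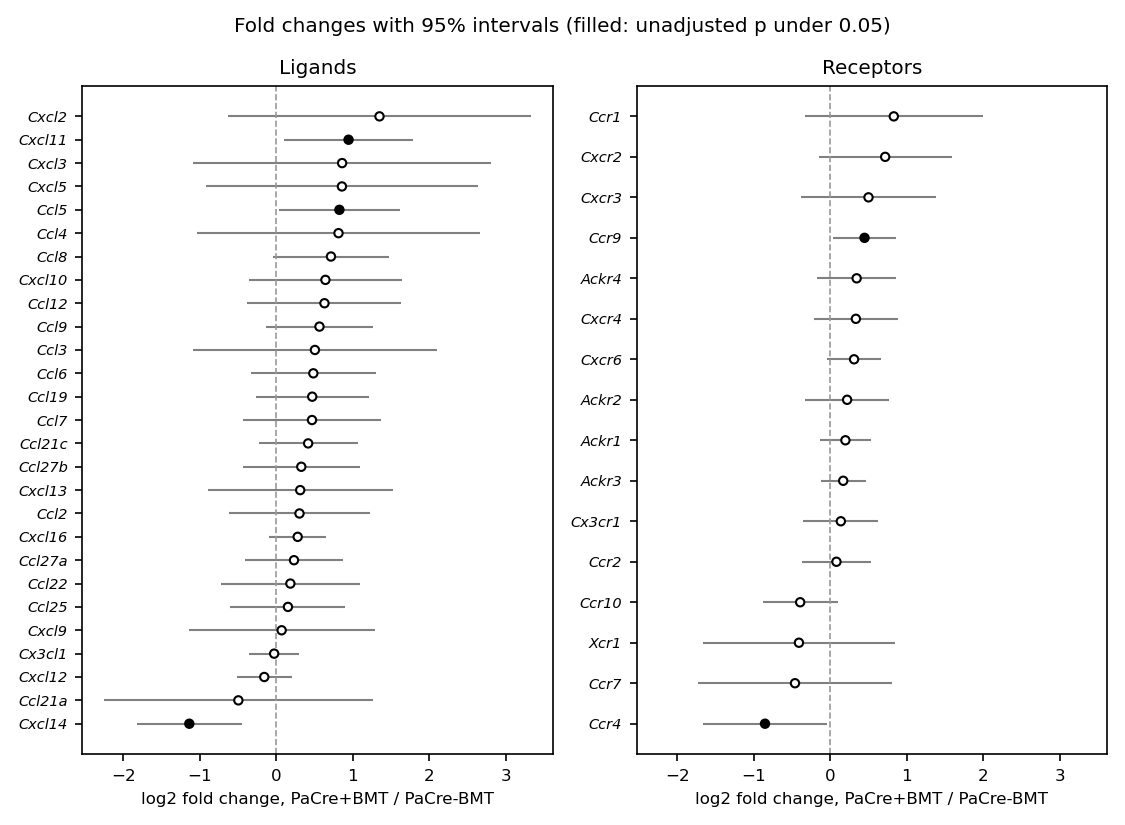
Log2 fold change of tested ligands (left) and receptors (right), PaCre+BMT over PaCre-BMT, with 95% intervals from edgeR. Filled points mark an unadjusted p under 0.05, and none of the points passed after adjustment over all genes.

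Cxcl2, Cxcl3 and Cxcl1 attract neutrophils through Cxcr2, and their genes lie in one cluster on chromosome 5. Their upstream sequences are shown because Cxcl3 and Cxcl2 had the widest spread of all tested members above 0 in every sample, while Cxcl1, the nearest neighbour of Cxcl2 among them, was scarcely detected. The 250 bases before each gene start are from RefSeq on GRCm38.p6, all on the plus strand, at chr5:90890995-90891244 for Cxcl1, chr5:90903649-90903898 for Cxcl2 and chr5:90785851-90786100 for Cxcl3. Capitals mark GGGAATTTCCC, the longest run that all 3 share, which contains a form of the NF-κB motif.
Cxcl1: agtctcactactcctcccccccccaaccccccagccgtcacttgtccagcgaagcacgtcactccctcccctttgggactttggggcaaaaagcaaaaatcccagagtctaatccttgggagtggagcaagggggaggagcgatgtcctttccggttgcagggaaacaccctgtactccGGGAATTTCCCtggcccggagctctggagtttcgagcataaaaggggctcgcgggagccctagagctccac
Cxcl2: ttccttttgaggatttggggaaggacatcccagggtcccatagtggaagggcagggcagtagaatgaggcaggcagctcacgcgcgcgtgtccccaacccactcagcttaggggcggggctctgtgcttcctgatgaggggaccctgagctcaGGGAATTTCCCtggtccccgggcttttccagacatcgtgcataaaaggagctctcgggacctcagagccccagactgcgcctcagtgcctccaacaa
Cxcl3: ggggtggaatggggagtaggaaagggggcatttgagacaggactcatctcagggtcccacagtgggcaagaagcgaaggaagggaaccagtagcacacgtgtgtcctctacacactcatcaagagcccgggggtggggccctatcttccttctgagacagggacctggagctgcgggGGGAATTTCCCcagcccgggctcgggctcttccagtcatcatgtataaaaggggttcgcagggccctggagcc

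The 11 bases begin 71 bases before the start of Cxcl1, 97 before that of Cxcl2 and 73 before that of Cxcl3. On either strand they occurred in 14 of 32851 such promoter windows of the mouse genome, or 0.0426%, and in no member but these 3 among the 45 with a window in the table. The run was taken from these 3 sequences, so this rarity is a description. The looser motif GGGNNNNNCC, searched on both strands, was in 51.9% of the 52 promoter windows of members and in 45.8% of all windows. A match describes the letters and does not show a bound site.

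Cxcl2 had 498, 109, 5.23 and 42.4 TPM in PaCre+BMT replicates 1 to 4, and 17.2, 34.6 and 190 TPM as the lowest, median and highest of the 7 PaCre-BMT samples. The PaCre+BMT group thus held both the highest and the lowest value of the 11 samples, which differed 95.2-fold. The difference was 1.35 ± 0.91 on the log2 scale (SE, edgeR adjusted p = 0.447), -0.32 without PaCre+BMT replicate 1, and 0.27 to 0.65 with limma on log-scale values. Cxcl3 had 67.35, 16.7, 0.42 and 8.42 TPM in PaCre+BMT replicates 1 to 4, against 1.53, 7.47 and 35.6 TPM (lowest, median, highest) in the PaCre-BMT samples. Its highest and lowest samples were the same as those of Cxcl2. Cxcl1 had 13.35 TPM in PaCre+BMT replicate 1 and 0.23 to 1.33 TPM in the other 3, against 0.53 to 2.02 TPM in the PaCre-BMT samples. Over all 11 samples it averaged 2.18 TPM, against 101 TPM for Cxcl2, and with 90 counts in total it did not pass the filter. Cxcl5, made by epithelium, stayed between 0 and 4.61 TPM, and Cxcl15, a lung chemokine, had 2 counts in all.

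Cxcr2, the neutrophil receptor of these ligands, had 18.2, 8.56, 4.45 and 8.19 TPM in PaCre+BMT replicates 1 to 4, against 1.99, 6.33 and 9.09 TPM (lowest, median, highest) in the PaCre-BMT samples. Only PaCre+BMT replicate 1 lay above the range of the PaCre-BMT samples. On the log2 scale the difference was 0.72 ± 0.40 (SE, edgeR adjusted p = 0.370), and 0.21 without that sample. Cxcr1, the other neutrophil receptor, was listed at 0 to 2.10 TPM.

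Ccl3 and Ccl4 are inflammatory CC chemokines of myeloid cells and lymphocytes, and Ccl3 acts on Ccr1. Ccl3 had 272, 51.25, 10.5 and 46.9 TPM in PaCre+BMT replicates 1 to 4, against 19.6, 58.0 and 170 TPM (lowest, median, highest) in the PaCre-BMT samples. Ccl4 had 222, 47.9, 6.06 and 25.2 TPM in the same PaCre+BMT samples, against 10.68, 26.2 and 144 TPM in the PaCre-BMT samples. PaCre+BMT replicate 1 was the highest and PaCre+BMT replicate 3 the lowest sample for both genes, as for Cxcl2 and Cxcl3. The log2 fold changes were 0.51 ± 0.73 for Ccl3 and 0.81 ± 0.85 for Ccl4 (SE), with edgeR adjusted p of 0.743 and 0.634. Both turned sign without PaCre+BMT replicate 1, to -0.92 and -0.71. They were 0.90 and 1.22 without PaCre+BMT replicate 3, and 0.95 and 1.55 without PaCre-BMT replicate 2. With limma on log-scale values Ccl4 was at 0.18 to 0.38 and Ccl3 at -0.16 to -0.04.

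The upstream sequence of Ccl3, shown as an example of a member on another chromosome with the same highest and lowest sample as Cxcl2, held no GGGAATTTCCC. It is from chr11:83649379-83649628 (RefSeq, GRCm38.p6, minus strand, 5′ to 3′).
Ccl3: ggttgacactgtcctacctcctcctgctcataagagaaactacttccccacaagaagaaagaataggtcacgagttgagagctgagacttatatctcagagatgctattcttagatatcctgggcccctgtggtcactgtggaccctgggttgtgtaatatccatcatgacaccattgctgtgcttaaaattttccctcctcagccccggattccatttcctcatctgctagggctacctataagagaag

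The order of samples was shared more widely. There were 9 members that had their highest TMM-scaled CPM in PaCre+BMT replicate 1 and the second highest in PaCre-BMT replicate 2, namely Ccl3, Ccl4, Ccl7, Ccr1, Cxcl13, Cxcl2, Cxcl3, Cxcr2 and Cxcr4. Among all tested genes 217, or 1.49%, had this order. The lowest value also lay in PaCre+BMT replicate 3 for 5 of them, Ccl3, Ccl4, Cxcl13, Cxcl2 and Cxcl3, and for 48 of all tested genes (0.329%). The order was noticed in these samples and then counted in them, so the counts are a description. Il1b, the cytokine IL-1β, from the list of chemokine inducers, had 366, 74.4, 3.78 and 40.7 TPM in PaCre+BMT replicates 1 to 4, and 127 TPM in PaCre-BMT replicate 2 as the highest of that group. The 11 neutrophil markers found in the files, of 12 examined, summed to 2759, 1592, 269 and 1055 TPM in PaCre+BMT replicates 1 to 4. In the PaCre-BMT samples they summed to 313 to 2570 TPM, with the highest in replicate 2, so within each group they were highest in the same sample as Cxcl2. Among these markers Elane, a protease of immature neutrophils, was at 0 in all samples. The part of neutrophil content in the ligand values was not tested.

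**Figure D3:**
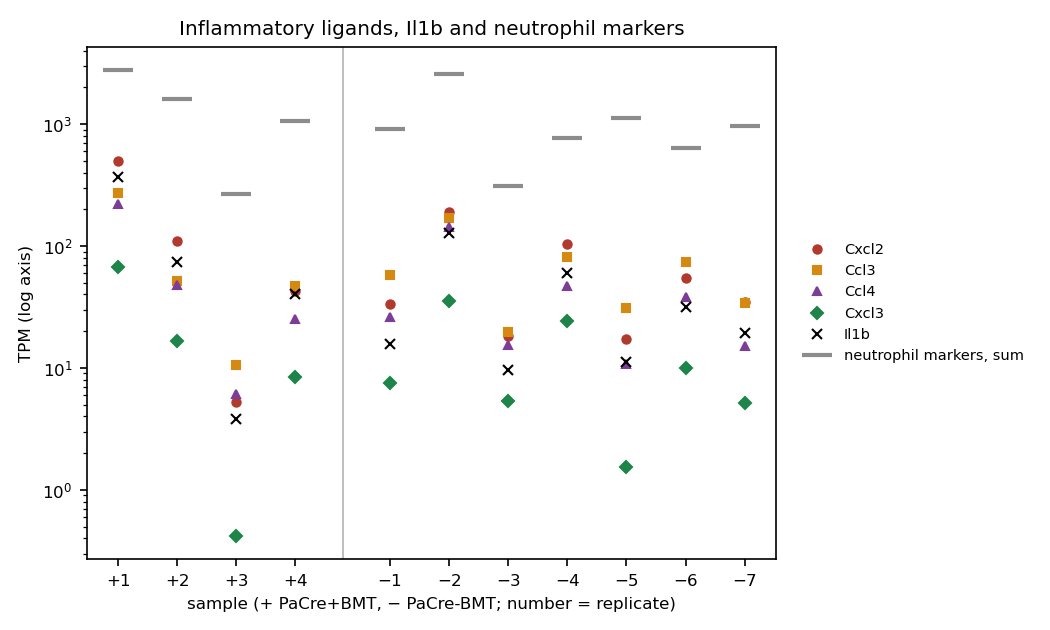
TPM (log axis) of Cxcl2, Ccl3, Ccl4, Cxcl3 and Il1b, and the summed TPM of 11 neutrophil markers, in each PaCre+BMT sample (left of the line) and each PaCre-BMT sample (right). All are highest in PaCre+BMT replicate 1, and within the PaCre-BMT group in replicate 2, and all are lowest of the 11 samples in PaCre+BMT replicate 3.

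Ccl6 and Ccl9 are mouse CC chemokines of macrophages and other myeloid cells that act on Ccr1. Ccl6 had 249, 149, 69.8 and 117 TPM in PaCre+BMT replicates 1 to 4, against 49.0, 97.1 and 189 TPM (lowest, median, highest) in the PaCre-BMT samples. Ccl9 had 60.7, 46.7, 19.2 and 33.0 TPM, against 14.9, 25 and 39 TPM in the PaCre-BMT samples. For both genes PaCre+BMT replicate 1 was the highest and PaCre-BMT replicate 3 the lowest sample, and the groups overlapped. The log2 fold changes were 0.49 ± 0.38 and 0.57 ± 0.32 (SE), with edgeR adjusted p of 0.509 and 0.373. Leaving out PaCre+BMT replicate 1 gave 0.08 for Ccl6 and 0.27 for Ccl9.

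Ccl5, an attractant of T cells and eosinophils, had 11.2, 6.83, 3.73 and 8.39 TPM in PaCre+BMT replicates 1 to 4, against 2.70, 3.29 and 7.38 TPM (lowest, median, highest) in the PaCre-BMT samples. In 2 PaCre+BMT samples, replicates 1 and 4, it exceeded all PaCre-BMT samples. It rested on 4 to 18 counts per sample, and the log2 fold change was 0.83 ± 0.36 (SE, edgeR adjusted p = 0.289). Of the 5 natural killer cell markers, all detected, 1 passed the filter on low counts. The 5 summed to 14.5, 9.76, 4.80 and 6.08 TPM in PaCre+BMT replicates 1 to 4, against 2.76 to 6.30 TPM in the PaCre-BMT samples. The 9 T cell markers summed to 35.7, 47.5, 36.1 and 23.4 TPM in the same PaCre+BMT samples, against 14.1 to 34.5 TPM in the PaCre-BMT samples. The part of either set in the Ccl5 values was not tested.

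Ccr1, a receptor of neutrophils and monocytes that binds Ccl3, Ccl6 and Ccl9, had 42.4, 15.5, 6.80 and 9.77 TPM in PaCre+BMT replicates 1 to 4, against 2.52, 10.2 and 23.0 TPM (lowest, median, highest) in the PaCre-BMT samples. Its log2 fold change of 0.83 ± 0.53 (SE, edgeR adjusted p = 0.427) was 0.00 without PaCre+BMT replicate 1.

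Ccl8, the most abundant chemokine in this skin, is made by dermal macrophages and in mice acts on Ccr8 of type 2 T cells. It had 1082, 1126, 295 and 518 TPM in PaCre+BMT replicates 1 to 4, against 255, 452 and 703 TPM (lowest, median, highest) in the PaCre-BMT samples. Replicates 1 and 2 lay above all PaCre-BMT samples and replicates 3 and 4 among them. The group means were 755 ± 413 TPM (SD, n = 4) in the PaCre+BMT and 454 ± 148 TPM (SD, n = 7) in the PaCre-BMT group. On the log2 scale they differed by 0.72 ± 0.35 (SE, 95% interval -0.05 to 1.48, edgeR adjusted p = 0.319), or by 0.44 without PaCre+BMT replicate 2. The 13 macrophage and monocyte markers, all detected, summed to 2627, 1742, 962 and 1143 TPM in PaCre+BMT replicates 1 to 4, against 815 to 1401 TPM in the PaCre-BMT samples. They thus also stood above the PaCre-BMT range in replicates 1 and 2 only, and their part in the Ccl8 values was not tested. Ccr8 itself had 54 counts in all samples together and was not tested.

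The upstream sequence of Ccl8, shown because the gene had the highest level, is from chr11:82114935-82115184 (RefSeq, GRCm38.p6, plus strand) and holds no GGGAATTTCCC.
Ccl8: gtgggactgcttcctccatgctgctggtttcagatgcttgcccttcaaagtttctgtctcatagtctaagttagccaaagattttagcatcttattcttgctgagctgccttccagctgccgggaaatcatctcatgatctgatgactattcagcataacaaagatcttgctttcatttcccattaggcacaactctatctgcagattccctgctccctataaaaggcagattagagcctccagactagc

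The other attractants of monocytes, which act on Ccr2, were far less abundant than Ccl8. Ccl7 averaged 31.4 ± 18.3 TPM in the PaCre+BMT group and 22.5 ± 9.96 TPM in the PaCre-BMT group (SD, n = 4 and 7). Ccl12 averaged 20.2 ± 10.0 against 12.8 ± 6.04 TPM and Ccl2 14.4 ± 10.2 against 11.5 ± 4.12 TPM, PaCre+BMT before PaCre-BMT. Each had its highest value in PaCre+BMT replicate 1 and its lowest in PaCre-BMT replicate 3, where Ccl12 had 2 counts. Ccr2, which monocytes need to leave the marrow, had 28.4, 29.1, 17.1 and 20.2 TPM in PaCre+BMT replicates 1 to 4, against 12.8, 25.4 and 25.9 TPM (lowest, median, highest) in the PaCre-BMT samples. The log2 fold change was 0.08 ± 0.21 (SE, edgeR adjusted p = 0.866; 95% interval -0.38 to 0.54), and its sign turned when PaCre+BMT replicate 1 or 2 was left out (-0.04 each) or PaCre-BMT replicate 3 (-0.01). Its counts were not whole in 9 of 11 samples, where RSEM had divided reads between genes, so its level is uncertain.

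Cxcl9, Cxcl10 and Cxcl11 are induced by interferons and bind Cxcr3 of T cells and natural killer cells. Cxcl10 had 40.2, 23.7, 10.6 and 7.39 TPM in PaCre+BMT replicates 1 to 4, against 4.21, 12.6 and 20.1 TPM (lowest, median, highest) in the PaCre-BMT samples. Cxcl9 averaged 11.3 ± 7.84 TPM in the PaCre+BMT and 10.7 ± 6.91 TPM in the PaCre-BMT group. The log2 fold changes were 0.64 ± 0.46 for Cxcl10 and 0.07 ± 0.56 for Cxcl9 (SE), with edgeR adjusted p of 0.472 and 0.964. Cxcl11 was the faintest of the 3, with 1.80, 1.56, 0.86 and 2.06 TPM in PaCre+BMT replicates 1 to 4, against 0.28, 0.67 and 1.67 TPM (lowest, median, highest) in the PaCre-BMT samples. This was a log2 fold change of 0.95 ± 0.39 (SE, edgeR adjusted p = 0.266) on 2 to 13 counts per sample. Over 1582 of its 3794 exon bases in GENCODE M21 it overlaps a processed pseudogene on the other strand, and the strand setting of the counting is not given in the sources used here. Cxcr3 averaged 2.13 ± 0.973 TPM in the PaCre+BMT and 1.48 ± 0.788 TPM in the PaCre-BMT group (edgeR adjusted p = 0.531).

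Cxcl14, a chemokine of resting epithelium and fibroblasts, had the smallest p of all members, and its mean was lower in the PaCre+BMT group. It had 72.0, 56.7, 74.3 and 111 TPM in PaCre+BMT replicates 1 to 4, and 69.8, 188 and 215 TPM as the lowest, median and highest of the PaCre-BMT samples. The means were 78.4 ± 22.9 TPM (SD, n = 4) in the PaCre+BMT and 167 ± 56.0 TPM (SD, n = 7) in the PaCre-BMT group. The difference of -1.14 ± 0.32 on the log2 scale (SE) had a 95% interval of -1.82 to -0.45 and an edgeR adjusted p of 0.248. It kept its sign when each sample in turn was left out, between -1.33 and -1.01. DESeq2 called Cxcl14 with an adjusted p of 0.0448, as the only member, where it called 0.569% of all tested genes. Limma-voom with sample quality weights called it with an adjusted p of 0.0211, beside Cxcl11 (0.0483) and Cxcl16 (0.0469), where that fit called 14.3% of all tested genes.

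The groups of Cxcl14 overlapped through 2 PaCre-BMT samples. PaCre-BMT replicates 1 and 7 had 69.8 and 105 TPM, and the other 5 PaCre-BMT samples 184 to 215 TPM. The 16 hair follicle markers, all detected, were high in the same 5 samples. They summed to 1790, 320, 574 and 9348 TPM in PaCre+BMT replicates 1 to 4. They summed to 1779 and 195 TPM in PaCre-BMT replicates 1 and 7, and to 16058 to 28393 TPM in the other 5 PaCre-BMT samples. In PaCre+BMT replicate 4, with the most hair marker RNA of its group, Cxcl14 was also the highest of its group. Among the 6 samples with less hair marker RNA than those 5, the order did not follow it further: PaCre-BMT replicate 7, with the lowest hair sum of all 11 samples, had more Cxcl14 (105 TPM) than PaCre+BMT replicate 1 (72.0 TPM) and PaCre-BMT replicate 1 (69.8 TPM). Adding a score of the hair markers to the model brought the log2 fold change of Cxcl14 to -0.64 (edgeR adjusted p = 0.599). The score was -1.265 to 0.46 in the PaCre+BMT samples and 0.742 to 1.121 in those 5 PaCre-BMT samples. In PaCre-BMT replicates 1 and 7 it was -0.431 and -1.645. Only these 2 PaCre-BMT samples had scores as low as the PaCre+BMT samples, so this fit can hardly separate the score from the group. The part of hair follicle content in the Cxcl14 values was not tested.

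**Figure D4:**
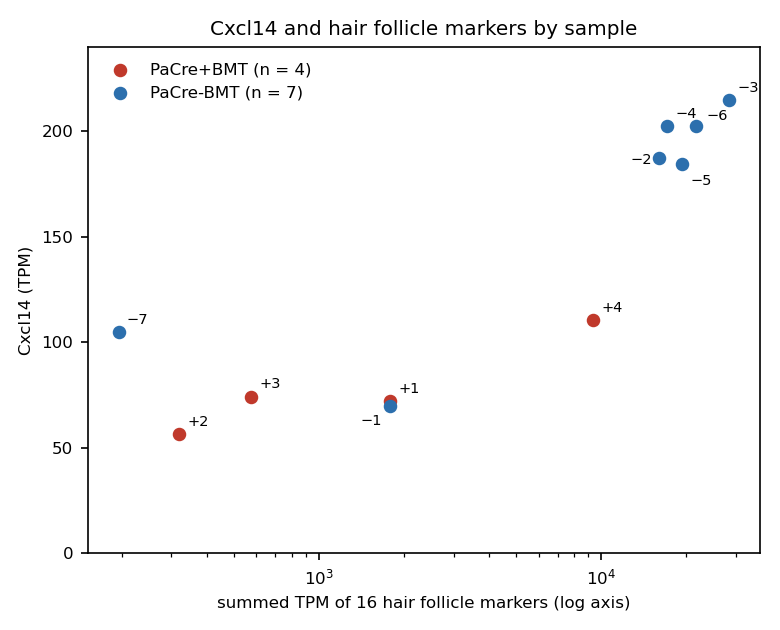
Cxcl14 (TPM) against the summed TPM of 16 hair follicle markers (log axis), one point per sample, PaCre+BMT (n = 4) and PaCre-BMT (n = 7), labelled by group sign and replicate. The 5 PaCre-BMT samples with the most hair marker RNA have 184 to 215 TPM of Cxcl14, and the other 6 samples, of both groups, have 56.7 to 111 TPM.

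The promoter window of Cxcl14, shown for the member with the smallest p, is from chr13:56296552-56296801 (RefSeq, GRCm38.p6, minus strand, 5′ to 3′). It holds no GGGAATTTCCC. Unlike the other windows printed, it lies inside the listed span of its gene, chr13:56288643-56296811. It is therefore not the sequence before the outermost start of Cxcl14.
Cxcl14: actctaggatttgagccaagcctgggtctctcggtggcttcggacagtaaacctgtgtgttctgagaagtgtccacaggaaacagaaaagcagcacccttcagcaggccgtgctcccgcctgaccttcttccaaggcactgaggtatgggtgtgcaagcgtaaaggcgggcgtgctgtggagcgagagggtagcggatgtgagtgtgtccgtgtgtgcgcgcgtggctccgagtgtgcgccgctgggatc

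Cxcl12, the stromal ligand that holds Cxcr4-bearing cells in marrow and tissue, differed little. It had 148, 154, 87.5 and 155 TPM in PaCre+BMT replicates 1 to 4, against 113, 142 and 176 TPM (lowest, median, highest) in the PaCre-BMT samples. PaCre+BMT replicate 3 alone lay below the PaCre-BMT range. It differed by -0.16 ± 0.17 on the log2 scale (SE, edgeR adjusted p = 0.641; 95% interval -0.52 to 0.20), and by -0.01 without that sample. Cxcr4, its receptor, had 46.3, 29.5, 19.65 and 21.3 TPM in PaCre+BMT replicates 1 to 4, against 15.55, 22.2 and 31.5 TPM (lowest, median, highest) in the PaCre-BMT samples. Its log2 fold change of 0.33 ± 0.25 (SE, edgeR adjusted p = 0.497) was 0.00 without PaCre+BMT replicate 1 and 0.51 without PaCre+BMT replicate 3. Cxcl16, a membrane-bound ligand and scavenger receptor, averaged 34.9 ± 7.54 TPM in the PaCre+BMT and 28.5 ± 7.48 TPM in the PaCre-BMT group (log2 fold change 0.28 ± 0.17 SE, edgeR adjusted p = 0.403). Its exons overlap those of Zmynd15 on the other strand over 552 bases, and its counts were not whole in all 11 samples. Cxcr6, the receptor of Cxcl16 on tissue T cells, averaged 8.07 ± 1.82 against 6.42 ± 0.839 TPM, PaCre+BMT before PaCre-BMT (edgeR adjusted p = 0.345).

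The chemokines that bring T cells to skin were led by Ccl27a, the keratinocyte ligand of Ccr10. Ccl27a had 104, 323, 326 and 170 TPM in PaCre+BMT replicates 1 to 4, against 130, 183 and 281 TPM (lowest, median, highest) in the PaCre-BMT samples. Here PaCre+BMT replicate 1, the highest sample for the inflammatory ligands, was the lowest of all 11. The log2 fold change was 0.23 ± 0.30 (SE, edgeR adjusted p = 0.704). It was 0.01 and 0.04 without PaCre+BMT replicates 2 and 3, 0.47 without PaCre+BMT replicate 1, and 0.36 without PaCre+BMT replicate 4 or PaCre-BMT replicate 1. Ccl27b is a close copy of Ccl27a on chromosome 4, and the counts of both were not whole in all 11 samples. Summed, the pair had 120, 371, 382 and 195 TPM in PaCre+BMT replicates 1 to 4, against 157 to 330 TPM in the PaCre-BMT samples, so the order of the PaCre+BMT samples did not depend on how reads were divided between them. Ccr10 had 1.51, 1.03, 1.67 and 2.01 TPM in the PaCre+BMT samples, against 1.29, 1.96 and 2.47 TPM in the PaCre-BMT samples, a log2 fold change of -0.39 ± 0.23 (SE, edgeR adjusted p = 0.379) that was -0.25 without PaCre+BMT replicate 2.

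Ccl17 and Ccl22, the ligands of Ccr4 that mark type 2 skin inflammation, were low. Ccl22 had 3.33, 3.16, 11.7 and 3.13 TPM in PaCre+BMT replicates 1 to 4, against 2.19, 4.16 and 8.73 TPM (lowest, median, highest) in the PaCre-BMT samples. Ccl17 had 29 counts in all samples together and was not tested. Ccr4, the receptor of type 2 and skin-homing T cells, had 0.51, 0.53, 0.91 and 1.01 TPM in PaCre+BMT replicates 1 to 4, against 0.42, 1.21 and 1.89 TPM in the PaCre-BMT samples. All 4 PaCre+BMT samples lay within the PaCre-BMT range, whose lowest sample was replicate 7. The log2 fold change of Ccr4 was -0.85 ± 0.37 (SE, edgeR adjusted p = 0.286) on 5 to 25 counts per sample, and -0.25 once the hair score was in the model. The 9 T cell markers, all detected, summed to 23.4 to 47.5 TPM in the PaCre+BMT and 14.1 to 34.5 TPM in the PaCre-BMT samples, with the tested markers above 0 on the log2 scale as given above. Ccl20, Ccr6, Ccl1, Ccl28 and Ccr8 were untested, with 23 to 105 counts each in all samples together. Of the 11 members of the skin T cell group 5 were tested, 3 above and 2 below 0 on the log2 scale (median 0.18).

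Ccl19 and Ccl21 draw dendritic cells and naive T cells into lymphatics and lymph nodes through Ccr7. The gene Ccl21a had 9.64, 94.95, 139 and 0 TPM in PaCre+BMT replicates 1 to 4, against 32.55, 77.6 and 184 TPM (lowest, median, highest) in the PaCre-BMT samples. Its copies Ccl21b and Ccl21c share reads with it, and most of its counts were not whole (10 of 11 samples), so the split between the copies is uncertain. Summed over the 3 copies, Ccl21 had 23.4, 108, 159 and 8.52 TPM in PaCre+BMT replicates 1 to 4, against 37.8 to 225 TPM in the PaCre-BMT samples. The low values of PaCre+BMT replicates 1 and 4 thus remained in the sum, below all PaCre-BMT samples. The 5 lymphatic endothelium markers, all detected, summed to 111, 91.3, 56.8 and 64.5 TPM in the same 4 samples. In the PaCre-BMT samples they summed to 47.7 to 79.0 TPM, and their part in the Ccl21 values was not tested. For Ccl21a the log2 fold change was -0.49 ± 0.81 (SE, edgeR adjusted p = 0.775). It was -0.14, -0.80, -1.26 and -0.09 when PaCre+BMT replicate 1, 2, 3 or 4 was left out, and -0.19 without PaCre-BMT replicate 1. With limma on log-scale values it was between -2.82 and -1.59, with the hair score in the model -1.40.

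Ccl19 averaged 9.92 ± 2.38 TPM in the PaCre+BMT and 7.03 ± 4.05 TPM in the PaCre-BMT group (edgeR adjusted p = 0.476). Ccr7 had 1.66, 0.33, 1.08 and 0.13 TPM in PaCre+BMT replicates 1 to 4, against 0.37, 1.11 and 2.22 TPM (lowest, median, highest) in the PaCre-BMT samples. Over the samples of both groups 1 to 18 counts per sample lay behind these values. The log2 fold change of Ccr7 was -0.46 ± 0.58 (SE, edgeR adjusted p = 0.703). It was -1.07 without PaCre+BMT replicate 1, -0.21 without PaCre+BMT replicate 2 and -0.13 without PaCre+BMT replicate 4. Cxcl13, the B cell attractant, had 19.2, 13.1, 2.13 and 15.4 TPM in PaCre+BMT replicates 1 to 4, against 3.28, 6.42 and 18.1 TPM in the PaCre-BMT samples, and its receptor Cxcr5 was untested with 87 counts in all.

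Of the atypical receptors, Ackr3 and Ackr1 were among the 3 tested members with the narrowest range. Ackr3, a scavenger of Cxcl12, had 17.2, 15.75, 14.3 and 17.8 TPM in PaCre+BMT replicates 1 to 4, against 10.8, 13.6 and 17.4 TPM (lowest, median, highest) in the PaCre-BMT samples. Its highest and lowest samples differed 1.64-fold. Ackr1, which displays chemokines on venules, had 7.90, 8.66, 8.74 and 8.08 TPM in the PaCre+BMT samples, against 5.41, 7.02 and 9.24 TPM in the PaCre-BMT samples, and shares 284 exon bases with Cadm3 on the same strand. The 7 blood endothelium markers, all detected, summed to 111 to 153 TPM in the PaCre+BMT and 70 to 141 TPM in the PaCre-BMT samples, and their part in the Ackr1 values was not tested. Ackr4, a scavenger of Ccl19, Ccl21 and Ccl25 in keratinocytes and lymphatics, had 17.0, 26.3, 36.6 and 19.8 TPM in the PaCre+BMT samples, against 13.4, 18.5 and 32.9 TPM in the PaCre-BMT samples. It was highest in PaCre+BMT replicate 3 and PaCre-BMT replicate 1, and it overlaps Acad11 on the other strand over 352 exon bases. All 4 atypical receptors had log2 fold changes above 0, from 0.17 for Ackr3 to 0.34 for Ackr4, with edgeR adjusted p of 0.452 or more. That of Ackr4 was 0.13 without PaCre+BMT replicate 3 and 0.52 without PaCre-BMT replicate 1. The median ratio of highest to lowest TPM was 4.28 over the 42 tested members above 0 in all samples, and 1.77 over the 14485 such genes tested.

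Among the remaining pairs, Cx3cl1 (fractalkine, on endothelium and epithelium) averaged 6.69 ± 1.5 TPM in the PaCre+BMT and 6.71 ± 1 TPM in the PaCre-BMT group, with a 95% interval of its log2 fold change of -0.36 to 0.30. Its receptor Cx3cr1 averaged 1.49 ± 0.408 against 1.33 ± 0.32 TPM in the same order. Ccr9, known as a gut-homing receptor, had 2.62, 2.35, 3.19 and 3.58 TPM in PaCre+BMT replicates 1 to 4, against 1.27, 2.19 and 3.08 TPM (lowest, median, highest) in the PaCre-BMT samples. Its log2 fold change was 0.45 ± 0.19 (SE, edgeR adjusted p = 0.273), and 269 of its exon bases lie in a noncoding gene on the same strand. Ccl25, its ligand, averaged 3.67 ± 0.87 TPM in the PaCre+BMT and 3.21 ± 1.32 TPM in the PaCre-BMT group. Xcr1, the receptor of cross-presenting dendritic cells, averaged 0.432 ± 0.233 against 0.553 ± 0.413 TPM, PaCre+BMT before PaCre-BMT, and its ligand Xcl1 was untested. Ccl26 had a count of 0 in all samples, which allows up to 3 counts per sample. Of the 15 untested members 10 were ligands and 5 receptors, and 10 of the 59 members averaged under 1 TPM.

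High values lay in different samples for different members. Of the 44 tested members 17 (38.6%), 13 ligands and 4 receptors, had their highest TMM-scaled CPM in PaCre+BMT replicate 1, where 13.8% of all tested genes did. By the same measure PaCre+BMT replicates 2 and 3 held the highest value of 6 and 7 members. The lowest value lay in PaCre-BMT replicate 3 for 12 members (27.3%), where 17.3% of all tested genes did, and that sample also had the highest sum of hair follicle markers. In TPM, Ccl27a, Ccl27b, Ccl22, Ccl21c, Ackr2, Ackr4, Cx3cl1 and Cx3cr1 were instead highest in PaCre+BMT replicate 3, the sample with the lowest Cxcl2.

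**Figure D5:**
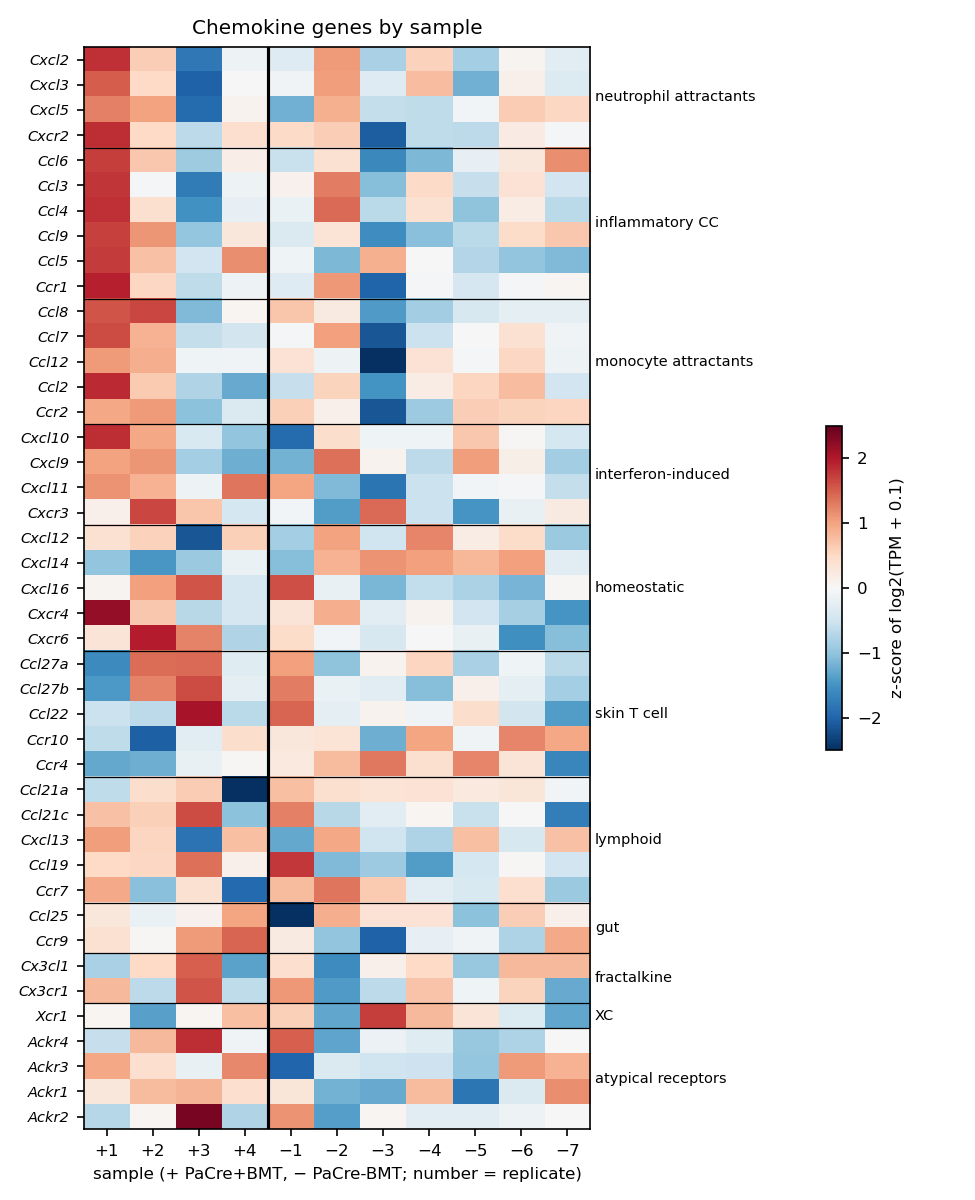
Z-scores of log2(TPM + 0.1) of tested members in the PaCre+BMT samples (left of the line) and the PaCre-BMT samples (right). Rows are grouped by axis, such as neutrophil attractants, with ligands before receptors. Red is above and blue below the mean of that gene over the 11 samples. Neutrophil, inflammatory and monocyte rows are red in PaCre+BMT replicate 1 and mostly blue in PaCre-BMT replicate 3, and Ccl27a, Ccl22 and Ackr4 are red in PaCre+BMT replicate 3 and PaCre-BMT replicate 1.

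Other genes of the pathway, taken by list, also lay mostly above 0 on the log2 scale. Of 10 chemokine-related genes with other names 9 were tested, 0 passed and 8 lay above 0, with a median of 0.31. Pf4 (platelet factor 4, also a macrophage gene) averaged 96.7 ± 34.6 TPM in the PaCre+BMT and 53.3 ± 14.6 TPM in the PaCre-BMT group, a log2 fold change of 0.84 ± 0.25 (SE, edgeR adjusted p = 0.248). Rarres2, which encodes the attractant chemerin, averaged 132 ± 48.2 against 73.1 ± 19.4 TPM in the same order (log2 fold change 0.84 ± 0.24, edgeR adjusted p = 0.248). Of 27 signal transduction genes, all tested, 24 lay above 0 with a median of 0.18, and 0 passed. Dock2, an activator of Rac in migrating leukocytes, averaged 16.5 ± 3.26 TPM in the PaCre+BMT and 12 ± 1.91 TPM in the PaCre-BMT group (edgeR adjusted p = 0.248). Of 22 inducing cytokines and transcription factors found in the files 17 were tested, 15 lay above 0 with a median of 0.24, and 0 passed. The median over all tested genes was -0.01. Tnf averaged 7.04 ± 7.82 TPM in the PaCre+BMT and 2.91 ± 1.21 TPM in the PaCre-BMT group, with 18.6 TPM in PaCre+BMT replicate 1 (edgeR adjusted p = 0.284). Dpp4, a protease that trims chemokines, averaged 12 ± 4.62 against 15.7 ± 4.03 TPM in the same order, with an adjusted p of 0.443.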

How the data were processed

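RNA of 11 skin samples was depleted of ribosomal RNA by RNase H and sequenced, per the labels' protocols. Trim Galore, RSEM and GRCm38 are among the names in the submitters' processing notes. Neither the aligner nor the strand setting is given in the sources used here. Expected counts, as deposited, are RSEM estimates without normalization, in which reads that map to several genes are divided between them (7.93% to 8.53% of genes per sample lay over 0.005 from the nearest whole value). Levels are TPM as deposited, which the authors scaled by effective gene length to 1 common sum per library. The FPKM values deposited by the authors were not used, and effective lengths only for CPM per kb.

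The members, axes, markers and pathway lists were chosen with earlier results of these data known. Expected counts were rounded, filtered with filterByExpr of edgeR (minimum count 10, minimum total 15), which left 14588 of 24411 genes, scaled with TMM and tested with edgeR 4.0.16 (glmQLFit in legacy mode, glmQLFTest, R 4.3.3) with group as the only term, PaCre+BMT minus PaCre-BMT. The Benjamini-Hochberg threshold was 0.05 over all tested genes. Standard errors are the log2 fold change over the square root of F. Values per sample were given by rule for the tested members with the 5 smallest p in each direction and for the 10 ligands and 8 receptors with the highest mean TPM, 24 members. Other members follow by axis. A member of these lists enters the counts and is not reported here.

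Alternatives were RLE and upper quartile scaling, no filter and a minimum count of 30, DESeq2 1.42.0, limma 3.58.1 (limma-trend on log2(TPM + 1) and log2(TPM + 0.1), voom, and voom weighted by sample quality), the hair score in the model, a block for the replicate number, and fits without 1 sample each. No library was a copy of another (lowest chi-square per degree of freedom over pairs 3.43). Intervals and floors cover these samples and counting error only. Promoter windows are from RefSeq on GRCm38.p6 and held 45 of the 59 members. Exon overlaps are from GENCODE M21 (GRCm38).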

Additional observations from a re-analysis of the deposited data

Results flagged for a closer look

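Values far from the rest of their group were found in 7 of 48 sets of TPM values of the 24 members given per sample. A rate of 1 in 20 would give about 2. The sets are not independent, since several flags fall in the same sample, so the 7 are a description and not an excess over chance. The Cxcl12 level of PaCre+BMT replicate 3 was 87.49 TPM, with the other PaCre+BMT samples between 148 and 155 TPM. The Ccl3 level of PaCre+BMT replicate 1 was 272.25 TPM, with the others between 10.5 and 51.25 TPM. In PaCre-BMT replicate 2 Ccl3 had 169.62 TPM against 19.6 to 81.4 TPM in the other PaCre-BMT samples, Ccl4 had 143.64 TPM against 10.68 to 47.2 TPM, and Ccr1 had 23.03 TPM against 2.52 to 11.01 TPM. In PaCre-BMT replicate 1 Ccl21a had 184.28 TPM against 32.55 to 84.5 TPM in the others, and Ackr4 had 32.86 TPM against 13.4 to 20.4 TPM.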

How the results depend on the processing

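The count of members past the threshold was 0 in the edgeR fits under other scalings and filters, with the hair score, with the replicate block and without each sample in turn (0 to 0), and in limma-voom and limma-trend. DESeq2 called 1 member and 83 genes in all. It left the adjusted p as NA for 13 members and for 1981 of all tested genes. Limma-voom with sample quality weights called 3 members and 2093 genes. At an unadjusted p under 0.05 the main edgeR fit had 6 members. Leaving out each sample gave 0 to 3 genes in all (3 without PaCre-BMT replicate 7, 1 without PaCre-BMT replicate 4), ligand medians of 0.08 to 0.69 and receptor medians of 0.12 to 0.35. Under the other settings the ligand median lay between 0.20 and 0.50 and the receptor median between 0.20 and 0.35. Ccl5 without PaCre-BMT replicate 3, Cxcl11 without PaCre-BMT replicate 1 and Ccr7 without PaCre-BMT replicate 1, 2 or 3 failed the filter on low counts and gave no value.

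Log2 fold changes turned sign for Ccl3 with limma-voom (-0.16, also with quality weights), with log2(TPM + 1) (-0.04) and log2(TPM + 0.1) (-0.05), and, with the hair score, for Cxcl12 (0.04) and Ccr2 (-0.02). Without 1 sample they ranged from -0.32 to 1.93 for Cxcl2, -0.92 to 0.95 for Ccl3, -0.71 to 1.55 for Ccl4 and -0.04 to 0.23 for Ccr2. Values that kept their sign also moved by over 1.5 times. Limma-voom, voom with quality weights, log2(TPM + 1) and log2(TPM + 0.1) gave 0.27, 0.65, 0.41 and 0.38 for Cxcl2, 0.18, 0.38, 0.32 and 0.31 for Ccl4, and -2.44, -1.59, -1.97 and -2.82 for Ccl21a. On log2(TPM + 1) Cxcl11 was at 0.53, Ccr4 at -0.38, Ccr10 at -0.24, Ccr7 at -0.25 and Cxcl12 at -0.07, and with quality weights Ccr10 was at -0.64, Ccr7 at -0.90, Ccl27a at 0.39 and Ccr2 at 0.19. The hair score gave 0.89 for Ccl3, 1.40 for Ccl4, 0.31 for Ccl6, 0.02 for Ccl27a, 0.11 for Ackr4, 0.08 for Ackr1, -0.21 for Ccr7 and -1.40 for Ccl21a. The cause was not tested. The replicate block over the 8 samples numbered 1 to 4 in both groups left 0 members and 0 genes called, and its log2 fold changes turned sign for Ccl27a (-0.02), Cxcl2 (-0.28), Ccl3 (-0.37) and Ccl4 (-0.27). It moved Ccl21a to -1.77, Ccr7 to -0.93, Ccl6 to 0.78, Ccl5 to 0.55, Cxcr4 to 0.05, Ccr2 to 0.25 and Ackr3 to 0.29. The labels do not pair the samples, and same-numbered samples correlated at -0.14 to 0.34 in their deviations from the group means. The same 8 samples without the block, a fit added after seeing the data, also called 0 genes. Of the 18 most abundant members, 18 were the same with CPM per kb of effective length. Of the tested members Cxcl11, Ccl5 and Ccr7 had the fewest counts, 82, 93 and 97 over all samples.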
